A study of Mus musculus with 14 samples.

Results

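The DNA replication and nucleotide supply genes are 36 genes that encode the S phase machinery, chosen by gene symbol from a list of S phase genes. The choice of these genes was made with earlier results of these data known. All 36 were present among the 54446 genes of that table, as 193 annotated transcripts, and the level of a gene is the sum of its transcripts. The members are 10 genes of origin licensing and the MCM helicase (Orc1, Orc6, Cdc6, Cdt1 and Mcm2 to Mcm7), 5 genes of the helicase activators (Cdc45 and Gins1 to Gins4), 6 polymerase and primase genes (Pola1, Pola2, Prim1, Prim2, Pold1 and Pole), 6 genes of the sliding clamp and its loader (Pcna and Rfc1 to Rfc5), 4 genes of single-strand binding and Okazaki fragment joining (Rpa1, Rpa2, Fen1 and Lig1) and 5 genes of deoxynucleotide supply (Rrm1, Rrm2, Tyms, Tk1 and Dut).

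Levels were measured by stranded, polyA-selected RNA sequencing of purified hepatocytes from C57BL/6 mice that lack or keep the splicing factor Srsf1 in hepatocytes. HKO mice carried floxed Srsf1 with 1 copy of an albumin-driven Cre (srsf1f/f;albcre+/-) and were sampled at postnatal day 10 (P10) and at 1 month, with 2 libraries at each age. Their controls carried the Cre alone (albcre+/-), also with 2 libraries at each age, and neither group was treated. Acute knockout mice (acHKO, 3 libraries) and their GFP controls (3 libraries) all carried floxed Srsf1 without albumin-Cre. At 8 weeks they received an AAV8 vector in which the hepatocyte promoter TBG drives iCre in acHKO mice or GFP in controls, and their hepatocytes were taken at 10 weeks. Cre from the albumin promoter acts in the liver lineage from before birth, whereas TBG-driven iCre acts in hepatocytes that are already mature. The labels do not say whether libraries of a group come from separate animals, so each p-value measures only the spread between these libraries.

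DNA replication starts in G1, when the origin recognition complex, Cdc6 and Cdt1 load the MCM helicase onto origins. In S phase Cdc45 and the GINS complex join and activate that helicase, primase and the polymerases copy the strands behind the clamp Pcna, and Fen1 and Lig1 process and seal the lagging strand. Ribonucleotide reductase, thymidylate synthase and thymidine kinase make the deoxynucleotides, and many genes of this set are transcribed under E2F factors. Hepatocytes divide during postnatal growth of the liver and are largely quiescent in the adult, where many become polyploid by replicating DNA without completing cell division.

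The targeted gene was checked first, and no knockout library overlapped its controls. Srsf1 was at 30.0 and 23.4 TPM (transcript abundance per gene, scaled to the same total in every library) in HKO hepatocytes at P10 against 43.6 and 46.4 TPM in controls, and at 7.74 and 9.17 TPM in HKO hepatocytes at 1 month against 23.2 and 20.0 TPM in controls. It was at 3.69, 5.34 and 4.16 TPM in acHKO hepatocytes against 16.5, 29.7 and 32.3 TPM in GFP controls. Markers of other liver cells were also present in these hepatocyte preparations, most of all at P10, where no marker gene was at 0 in all 14 libraries and 12 stayed below 1 TPM in all of them, among them the cholangiocyte genes Krt7 and Krt19 and the neutrophil gene Ly6g. HKO replicate 2 at P10 stood apart from the other libraries, with Xist at 74.7 TPM and a summed level of Y-linked genes of 0.144 TPM, whereas Xist did not pass 0.0147 TPM and Y-linked genes summed to 24.9 to 68.0 TPM in the other 13 libraries. That library also held 2988 TPM of erythroid markers and 498.3 TPM of neutrophil markers, against 525.6 and 107.7 TPM in the other HKO library at P10, and the counts at P10 are therefore given with and without it. In bulk RNA, fewer cells of a type and less RNA per cell cannot be told apart.

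Age set the level of the replication genes far more than genotype did. The summed TPM of the 36 members was 538.2 and 563.5 in HKO hepatocytes at P10 and 388.7 and 428.2 in controls at P10. It was 79.4 and 109.4 in HKO hepatocytes at 1 month and 74.3 and 79.4 in controls at 1 month. In adults it was 69.7, 73.0 and 72.4 in acHKO hepatocytes and 72.0, 75.7 and 104.4 in GFP controls. The ranges of the P10 groups lay wholly above those of the older groups, and the acHKO libraries all lay inside or just below the GFP range.

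**Figure D1:**
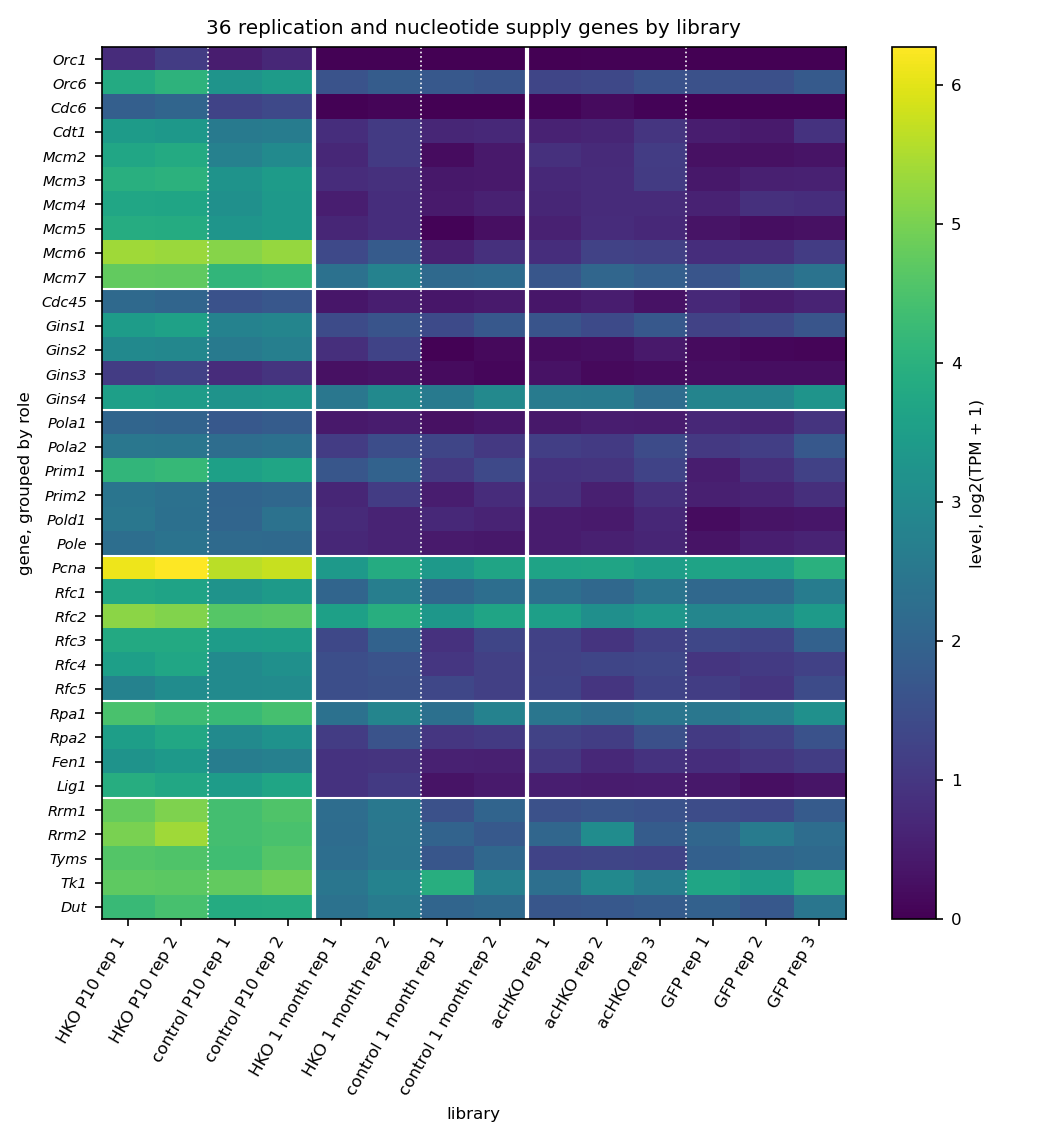
Level of each of the 36 members in each of the 14 libraries, as log2(TPM + 1), with genes ordered by role down the page and libraries grouped by condition across it. The 4 P10 libraries on the left hold the highest level of nearly every gene, and Gins4, Tk1 and the clamp genes Pcna and Rfc2 stay visible in the older hepatocytes. The Rfc2 level lies mostly in transcript models annotated as retaining an intron.

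Of the 36 members, 35 were lower in control hepatocytes at 1 month than at P10, by limma on log2(TPM + 1) with Benjamini-Hochberg adjustment over the 17621 genes tested at an adjusted p under 0.05. In that comparison 35.4% of all genes tested were lower and 4.82% were higher, and the median log2 change was -1.85 for the members and -0.33 for all genes. In HKO hepatocytes all 36 members were lower at 1 month than at P10, where 54.9% of all genes were lower and 3.72% were higher. Their median log2 change was -2.08, against -0.53 for all genes. A fold change on this scale understates the change of a gene with a low level. After each library was rescaled by its median ratio to the other libraries, a step that sets changes relative to the median gene, 34 members were lower with age in controls (28.2% of all genes) and 35 in HKO hepatocytes (26.1%).

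By summed level the loss with age was steepest for the licensing and helicase genes. Their sum at 1 month was 0.0902 times that at P10 in HKO hepatocytes and 0.0795 times in controls, while the clamp and clamp loader genes stood at 0.230 times in HKO hepatocytes and 0.259 times in controls. The Rfc2 level in the clamp loader sum lay mostly in models annotated as retaining an intron. In controls at 1 month Rfc2-204 and Rfc2-205 of that kind averaged 5.64 and 2.71 TPM, and the coding model Rfc2-201 0.608 TPM. Cdc45 and the GINS genes stood at 0.291 times the P10 sum in HKO hepatocytes and 0.370 times in controls, values that rest on Gins4: without it they were 0.165 times in HKO hepatocytes and 0.178 times in controls. By the median log2 change of single genes the order was different. In HKO hepatocytes the licensing and helicase genes had the steepest median, -2.67, whereas in controls deoxynucleotide supply had a median of -2.57 against -2.28 for licensing and helicase genes. Mcm6, a subunit of the helicase ring, averaged 2.07 ± 0.617 TPM at 1 month against 39.9 ± 0.827 TPM at P10 in HKO hepatocytes, and 0.660 ± 0.235 against 35.6 ± 2.62 TPM in controls (SD, n = 2 each). Its log2 change with age was -3.75 in HKO hepatocytes (limma adjusted p = 5.661e-05) and -4.47 in controls (limma adjusted p = 2.737e-05). Lig1, the ligase that seals Okazaki fragments, changed by -2.83 on the log2 scale in HKO hepatocytes and -3.17 in controls (limma adjusted p = 6.032e-05 and 3.963e-05). Pcna, the sliding clamp, was the member with the highest level at P10 in every library and changed by -2.58 in HKO hepatocytes and -2.16 in controls (limma adjusted p = 0.0001753 and 0.0003714).

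The exception was Gins4, a GINS subunit, with 4.93 and 6.79 TPM in controls at 1 month against 8.34 and 8.58 TPM in controls at P10 (log2 change -0.48, limma adjusted p = 0.1249). The origin recognition gene Orc1 was listed at 0 in both control libraries at 1 month, against 0.416 and 0.629 TPM in controls at P10. Its fitted log2 change was -0.60 (limma adjusted p = 0.006014), and no ratio of TPM is given against a group listed at 0.

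Markers of other cell types moved with age too. The 14 macrophage markers summed to 158.1 and 56.9 TPM in HKO hepatocytes at 1 month and 747.6 and 514.7 TPM at P10, and to 16.6 and 20.5 TPM in controls at 1 month and 435.5 and 456.4 TPM at P10. Of these markers 14 were lower with age in HKO hepatocytes and 13 in controls. Endothelial and stellate cell markers were likewise higher at P10 in every library. The part that these cells had in the fall of the replication genes was not tested.

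**Figure D2:**
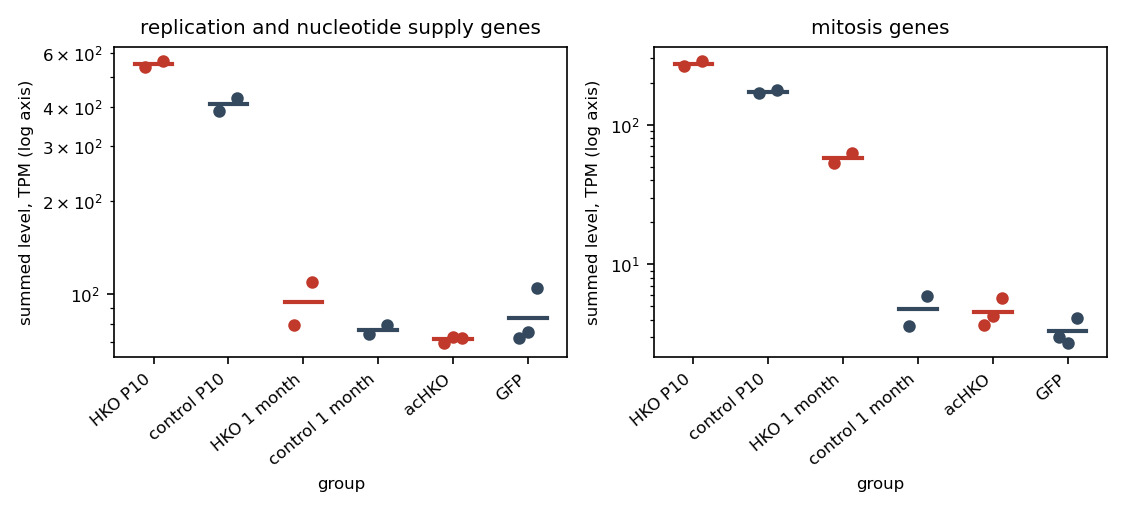
Summed TPM of the 36 replication members and of 20 mitosis genes in each library, on a log axis, with 1 dot per library and a line at the group mean. The replication sum differs mainly between P10 and the later ages, whereas the mitosis sum also separates HKO hepatocytes (52.9 and 63.1 TPM) from controls (3.61 and 5.95 TPM) at 1 month.

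At P10 the summed level of the replication genes in HKO hepatocytes was 1.349 times that in controls, and 7 of the 36 genes passed the test as higher. In all, 31 of the 36 members were higher in both HKO libraries than in both control libraries, where 56.3% of all genes tested were. Only Tk1 was lower in both HKO libraries, and 14.1% of all genes were. With HKO replicate 2 left out the ratio of sums was 1.318. Beside the 7 that passed as higher 0 passed as lower, where 10.8% of all genes passed as higher and 1.64% as lower. At an unadjusted limma p under 0.05 there were 19 higher and 0 lower. The share of all genes at an unadjusted p was not counted, here or below. Such counts therefore cannot be set against a background. At an adjusted p under 0.05 the authors' deposited table gave 7 members as higher (13.4% of all genes with an adjusted p), namely Cdc6, Cdt1, Gins1, Mcm2, Mcm3, Mcm7 and Rrm2. Tk1 was the 1 member lower in the authors' deposited table, where 11.8% of all genes were. The median log2 difference was 0.44 for the members and 0.19 for all genes. A general upward shift ran through these libraries: among genes of at least 1 TPM the median log2 difference was 0.25. After median-ratio rescaling 3 members passed as higher (7.83% of all genes), namely Cdc6, Cdt1 and Mcm2, and 0 as lower (5.64%), and the members' median was 0.20 against 0.019 for all genes.

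Licensing and helicase genes supplied 4 of the 7. On GRCm38 the GENCODE annotation places Cdc6 at chr11:98907801-98923940 on the plus strand, Cdt1 at chr8:122568015-122573554 on the plus strand and Mcm2 at chr6:88883474-88898780 on the minus strand. Cdc6, which loads the helicase at origins, was at 2.70 and 3.14 TPM in HKO hepatocytes against 1.39 and 1.60 TPM in controls (log2 difference 0.65 ± 0.10 SE, limma adjusted p = 0.009013). Cdt1, its partner in loading, was at 9.79 and 9.11 TPM in HKO hepatocytes against 5.02 and 5.18 TPM in controls (0.78 ± 0.15 SE, limma adjusted p = 0.01775). Mcm2, a helicase subunit, was at 12.2 and 13.2 TPM in HKO hepatocytes against 5.75 and 6.99 TPM in controls (0.90 ± 0.18 SE, limma adjusted p = 0.02373). In all 3 genes the replicates of a group lay close together and the groups were well apart. Mcm3, another subunit of the ring, was at 14.5 and 15.3 TPM in HKO hepatocytes against 8.30 and 9.86 TPM in controls (0.66 ± 0.15 SE, limma adjusted p = 0.03059). Mcm4, Mcm5, Mcm6 and Mcm7, the other subunits of the ring, did not pass. Of these Mcm6 lay closest to its controls, with 40.5 and 39.3 TPM in HKO hepatocytes against 33.8 and 37.5 TPM in controls (0.16, limma adjusted p = 0.6162). Mcm5 was at 13.7 and 13.4 TPM in HKO hepatocytes against 8.59 and 9.51 TPM in controls. Whether Mcm6 differed from the other subunits was not tested.

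The remaining 3 members that passed came from other steps. Gins1, a subunit of the helicase activator GINS, was at 10.1 and 11.1 TPM in HKO hepatocytes against 5.88 and 6.20 TPM in controls (0.72 ± 0.17 SE, limma adjusted p = 0.03763). Fen1, the nuclease that trims Okazaki fragments, was at 8.33 and 9.25 TPM in HKO hepatocytes against 5.26 and 5.66 TPM in controls (0.60 ± 0.13 SE, limma adjusted p = 0.03029). Rrm2, the S phase subunit of ribonucleotide reductase, was at 31.2 and 40.2 TPM in HKO hepatocytes against 20.1 and 21.1 TPM in controls (0.76 ± 0.20 SE, limma adjusted p = 0.04954). The call of Rrm2 was close to the threshold and held in 2 of 12 alternatives. Of the same 12, the call held in 4 for Gins1, 5 for Mcm3, 6 for Fen1, 7 for Cdt1, 7 for Mcm2 and 10 for Cdc6. None of the 6 polymerase and primase genes and none of the 6 clamp and loader genes passed, although Pcna was at 68.4 and 76.2 TPM in HKO hepatocytes against 48.6 and 52.6 TPM in controls. Tk1, the thymidine salvage kinase, was at 25.2 and 24.9 TPM in HKO hepatocytes against 26.0 and 29.3 TPM in controls, a log2 difference of -0.14 that did not pass.

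These calls at P10 depended on single libraries. With 1 library left out, its arm had 1 library, assumed to vary like the other groups. Without HKO replicate 2, the library that stood apart, 1 member passed, Cdc6, with a log2 difference of 0.57 (limma adjusted p = 0.03047). Without HKO replicate 1 there were 2, Cdc6 and Orc1; without control replicate 2 there was 1, Cdc6; and without control replicate 1 there were 0. Cholangiocyte markers were higher in HKO hepatocytes at P10, with sums of 142.5 and 174.6 TPM against 66.1 and 79.5 TPM in controls and 6 of the 8 tested genes past the threshold. Macrophage markers summed to 747.6 and 514.7 TPM in HKO hepatocytes against 435.5 and 456.4 TPM in controls, with 3 of 14 past it, and stellate markers to 193.3 and 149.5 TPM against 125.5 and 139.6 TPM, with 2 past it. The 10 hepatocyte markers summed to 76386 and 60078 TPM in HKO hepatocytes against 114532 and 109288 TPM in controls. The part of these shifts in the higher replication genes was not tested.

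Some genes of neighbouring pathways passed as higher at P10, where 10.8% of all genes did. Of 18 other origin and fork factors 5 rose in HKO hepatocytes, among them Dbf4, the activating subunit of the origin-firing kinase (0.96, limma adjusted p = 0.02302). Of 15 genes of de novo purine and pyrimidine synthesis 3 rose, led by the CTP synthase Ctps (1.27). The chromatin factor Uhrf1, which binds replicated DNA, was the 1 of 9 chromatin assembly genes that rose (0.64, limma adjusted p = 0.01701). Of 15 other polymerase, RPA and processing subunits 3 rose, namely Pole2, Atad5 and Chtf18, and 1 was higher after median-ratio rescaling. Dctd was the 1 of 13 genes of other deoxynucleotide supply that rose, and it kept its call without HKO replicate 2. After rescaling 0 of these 13 were higher and 1 was lower, where 7.83% and 5.64% of all genes were. Of 20 mitosis genes 7 rose, with summed levels of 261.9 and 286.2 TPM in HKO hepatocytes against 168.6 and 177.8 TPM in controls. None of 13 E2F factors and pocket proteins passed in either direction by limma, where 6 were higher and 0 lower at an unadjusted p under 0.05. Cdkn1a, the CDK inhibitor p21, was the 1 of 13 cyclin, CDK and inhibitor genes that rose, and 2 of the 13 were higher after rescaling. Cdkn1a was at 21.8 and 26.3 TPM in HKO hepatocytes against 5.19 and 4.26 TPM in controls (2.13, limma adjusted p = 0.02566). After median-ratio rescaling 1 of the 18 origin and fork factors, 2 of the 15 purine and pyrimidine genes, 1 of the 9 chromatin assembly genes and 2 of the 20 mitosis genes were higher. Without HKO replicate 2 none of these 4 lists, nor the E2F or cyclin lists, held a gene that passed by limma, where 5.84% of all genes were higher. The mitosis count was also 0 without either control library and 2 without HKO replicate 1. Cholangiocyte markers had 5 of 8, macrophage markers 3 of 14 and stellate markers 2 of 11 past the threshold without HKO replicate 2.

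**Figure D3:**
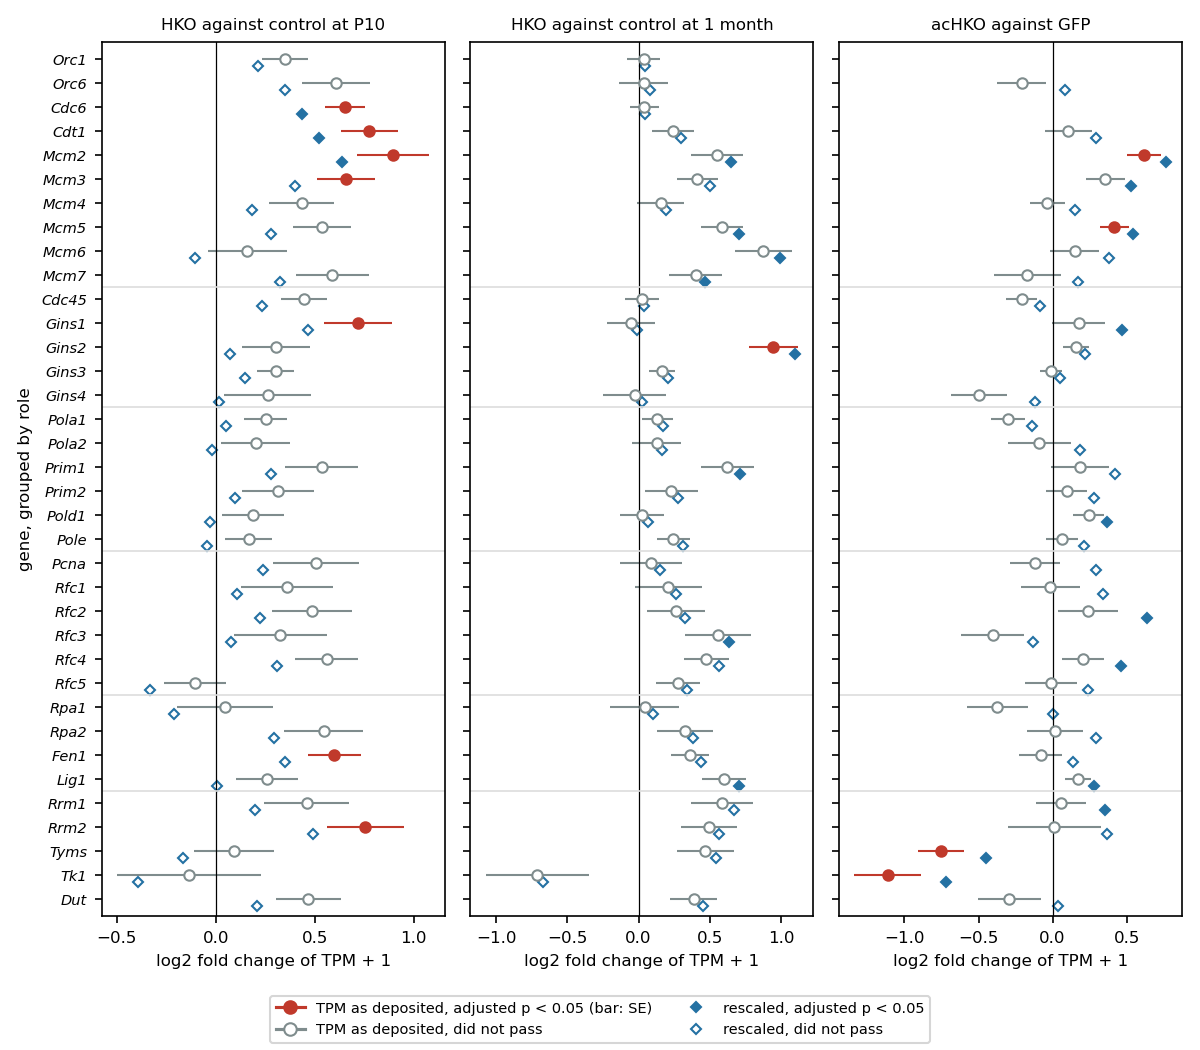
Log2 difference of each member between HKO and control hepatocytes at P10, between HKO and control hepatocytes at 1 month and between acHKO and GFP hepatocytes, with bars of 1 standard error; circles are from TPM as deposited and diamonds after median-ratio rescaling. At P10 nearly all genes lie right of 0 within a narrow band, at 1 month Gins2 and Mcm6 lie furthest right, and in the acute comparison Tk1 and Tyms lie furthest left.

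At 1 month, with replication transcripts low in both genotypes, 1 of the 36 members passed as higher in HKO hepatocytes and 0 as lower, where 2.86% of all genes tested passed as higher and 1.1% as lower. At an unadjusted limma p under 0.05 there were 12 higher and 0 lower, with no share of all genes counted at that threshold. The summed level was 1.229 times that of controls. In 23 members both HKO libraries were above both control libraries, where 26.7% of all genes were, in 13 the groups overlapped, and in none were both HKO libraries below, where 14.5% of all genes were. The members' median log2 difference was 0.25, against 0.021 for all genes.

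The gene that passed was Gins2 (chr8:120578633-120589304, minus strand, GRCm38), with 0.789 and 1.39 TPM in HKO hepatocytes against 0.029 and 0.119 TPM in controls, a ratio of mean TPM of 14.8 (log2 difference 0.95 ± 0.17 SE, limma adjusted p = 0.03028). Much of this level lay in short non-coding transcript models. The retained-intron model Gins2-204 was at 0.409 and 0.726 TPM in HKO hepatocytes against 0 and 0.079 TPM in controls, and the coding model Gins2-201 was at 0.157 and 0.239 TPM against 0.029 and 0.040 TPM. With coding transcripts alone, Gins2 did not pass (0.26, limma adjusted p = 0.2079), and Mcm6 was the member that did (0.94, limma adjusted p = 0.04569). Gins2 also did not pass without control replicate 1 (adjusted p = 0.1539) or without control replicate 2 (adjusted p = 0.1178), both by limma.

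Several other members differed at low levels without passing. Mcm6 was at 1.63 and 2.50 TPM in HKO hepatocytes against 0.494 and 0.826 TPM in controls (0.88 ± 0.20 SE, limma adjusted p = 0.06351). Mcm5 was at 0.599 and 0.766 TPM in HKO hepatocytes against 0.049 and 0.193 TPM in controls (0.59 ± 0.15 SE, limma adjusted p = 0.0889). Prim1, the catalytic subunit of primase, was at 2.22 and 2.91 TPM in HKO hepatocytes against 1.05 and 1.59 TPM in controls (0.62 ± 0.18 SE, limma adjusted p = 0.1393). These genes were all higher in both HKO libraries than in both control libraries. Lig1 was at 0.900 and 1.10 TPM in HKO hepatocytes against 0.265 and 0.373 TPM in controls (0.60 ± 0.16 SE, limma adjusted p = 0.1014). The groups did not overlap in Lig1 either, but none of these differences passed on TPM as deposited. After median-ratio rescaling 8 members passed as higher (6.93% of all genes), namely Gins2, Mcm6, Mcm5, Lig1, Prim1, Mcm7, Mcm2 and Rfc3, and 0 passed as lower (3.72%). At an adjusted p under 0.05 the authors' deposited table gave 6 members as higher, where 8.97% of all genes with an adjusted p were, and 0 as lower (4.53%). These were Gins2 (log2 fold change 3.89, adjusted p = 1.133e-08), Mcm5 (2.43), Mcm2 (1.65), Lig1 (1.57), Mcm6 (1.55) and Mcm3, all from the authors' deposited table.

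The clamp gene Pcna overlapped at 1 month, with 9.26 and 13.6 TPM in HKO hepatocytes against 9.54 and 11.6 TPM in controls. Tk1 overlapped as well, with 4.52 and 5.89 TPM in HKO hepatocytes against 14.3 and 5.66 TPM in controls, and its large spread came from control replicate 1.

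**Figure D4:**
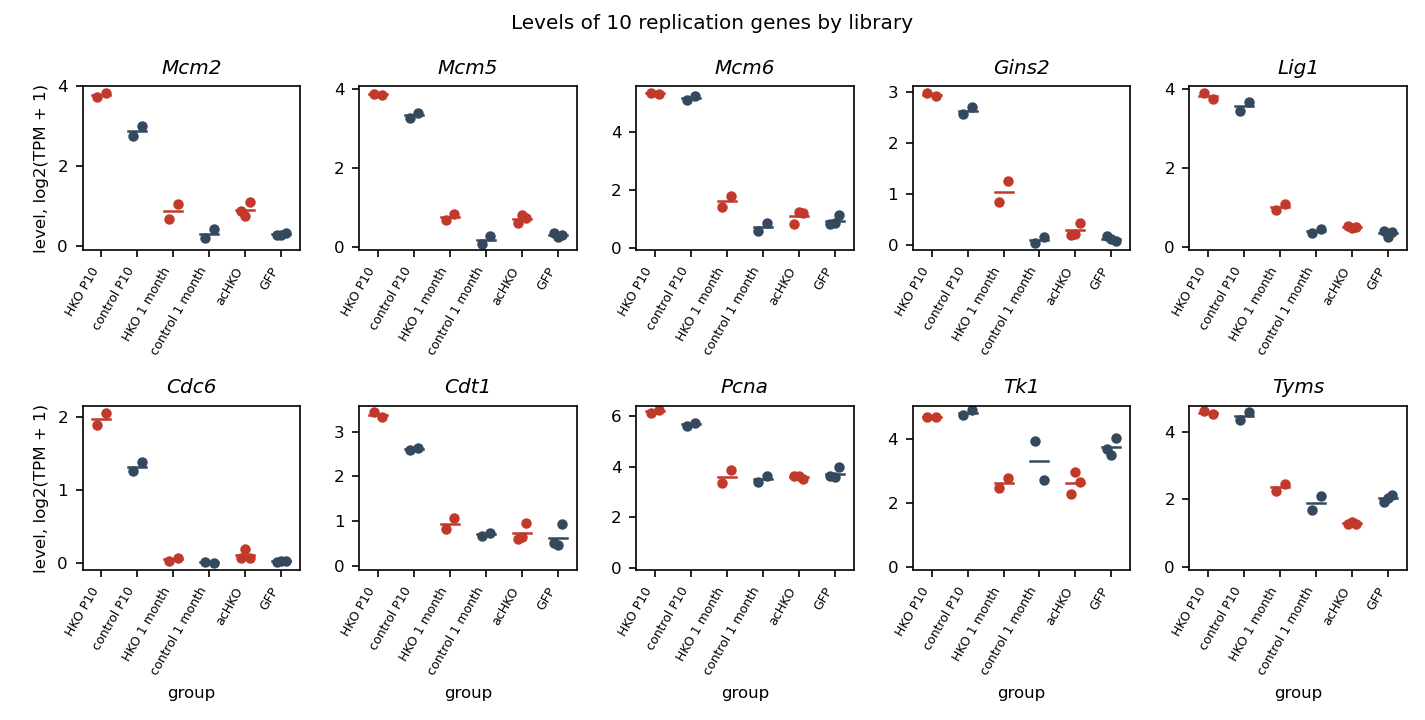
Level of 10 members in each library, as log2(TPM + 1), by group, with 1 dot per library, a line at the group mean and each gene on its own axis. Mcm2 and Mcm5 are higher in HKO and acHKO libraries than in their controls in all 3 comparisons, whereas Tk1 and Tyms are lower in acHKO than in GFP hepatocytes.

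By median and by sum the mitosis genes differed more than the replication genes at this age. The 2 sets were not tested against each other. Of 20 mitosis genes 17 rose in HKO hepatocytes at 1 month, with a median log2 difference of 1.39 against 0.25 for the members. The mitosis sum was 12.1 times that of controls, against 1.229 times for the replication genes. The replication sum gives most weight to high genes such as Pcna, at means of 11.4 TPM in HKO hepatocytes and 10.6 TPM in controls. At low levels Mcm5 had means of 0.682 and 0.121 TPM in the same order. Without mitochondrially encoded genes 17 of 36 members and 19 of 20 mitosis genes passed as higher (11.8% of all genes). Ccnb2, a mitotic cyclin, was at 8.94 and 8.10 TPM in HKO hepatocytes against 0.31 and 0.42 TPM in controls (2.80, limma adjusted p = 0.00038). Kif20a, a kinesin of late mitosis, was at 3.86 and 4.62 TPM in HKO hepatocytes against 0.136 and 0.315 TPM in controls (2.10, limma adjusted p = 0.000994). Between 10 and 17 of the 20 passed when 1 library was left out. In controls the mitosis sum at 1 month, 3.61 and 5.95 TPM, was far below the replication sum of 74.3 and 79.4 TPM, while in HKO hepatocytes the sums were 52.9 and 63.1 TPM for mitosis and 79.4 and 109.4 TPM for replication.

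Of 13 cyclin, CDK and inhibitor genes 3 rose in HKO hepatocytes at 1 month. They were Ccna2 (2.19, limma adjusted p = 0.001553), Cdk1 (2.34, limma adjusted p = 0.006887) and Ccnd1 (2.13, limma adjusted p = 0.02146). Dbf4 was the 1 of 18 other origin and fork factors that rose, with 2.85 and 4.44 TPM in HKO hepatocytes against 0.816 and 0.686 TPM in controls (1.39, limma adjusted p = 0.0123). None of 15 other polymerase, RPA and processing subunits, 9 chromatin assembly genes, 13 other deoxynucleotide genes, 15 purine and pyrimidine genes or 13 E2F factors and pocket proteins passed as higher by limma, and each of these lists had at most 1 higher gene at an unadjusted p under 0.05. Markers of other cells were higher in HKO hepatocytes at this age too. Macrophage markers summed to 158.1 and 56.9 TPM in HKO hepatocytes against 16.6 and 20.5 TPM in controls, with Cd68 and Lyz2 past the threshold, cholangiocyte markers to 39.1 and 25.4 TPM against 5.49 and 5.23 TPM, with Spp1 and Bicc1 past it, and stellate markers to 32.0 and 12.5 TPM against 5.79 and 5.36 TPM. Their part in the differences at 1 month was not tested.

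**Figure D5:**
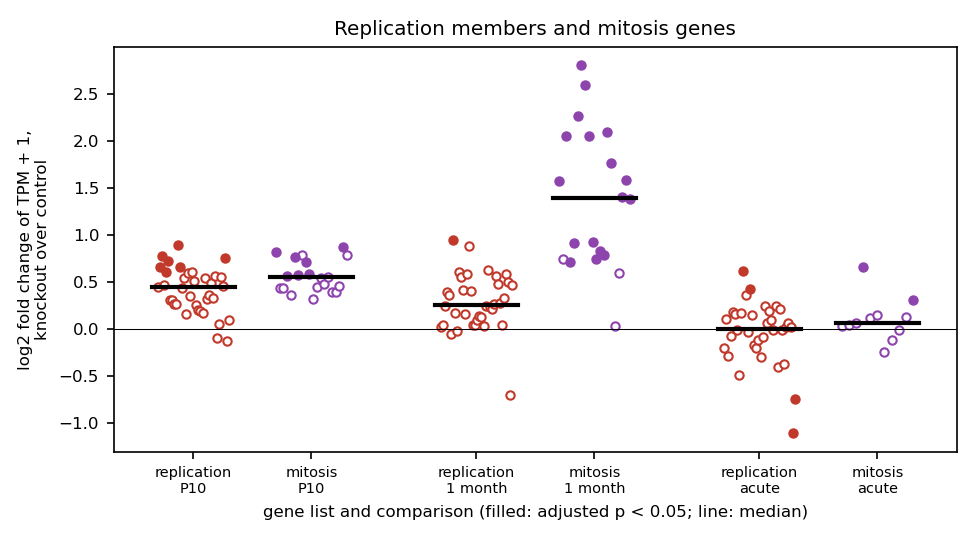
Log2 differences of the replication members and of the mitosis genes in the HKO comparisons at P10 and at 1 month and in the acute comparison, 1 dot per gene, filled where the gene passed the test, with a line at the median. On TPM as deposited, 17 of 20 mitosis genes at 1 month are filled and high while 1 of 36 replication genes is filled. In the acute comparison the replication genes scatter around 0 on the same values.

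After acute loss of Srsf1 in mature hepatocytes the members did not move together on TPM as deposited. Of the 34 tested, Orc1 and Cdc6 being under the minimum of 0.1 TPM, 2 were higher in acHKO hepatocytes and 2 were lower, where 5.57% of the 15050 genes tested were higher and 22.7% were lower. In 7 members all acHKO libraries were above all GFP libraries (9.8% of all genes), in 6 all were below (38.1%), and in 21 the groups overlapped. The members' median log2 difference was 0.0005, against -0.20 for all genes. These libraries carried a shift of the opposite sign to that at P10, with a median log2 difference of -0.36 among genes of at least 1 TPM. After median-ratio rescaling 9 members passed as higher (17.2% of all genes) and 2 as lower (13.9%), and the members' median was 0.26 against 0.045 for all genes. Of the 34 members 28 then had a log2 difference above 0, against 17 on TPM as deposited. With mitochondrially encoded genes left out 28 were above 0 too, with a median of 0.30 against 0.063 for all genes. The share of all genes above 0 was not counted.

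The 2 that rose were helicase subunits. Mcm2 was at 0.842, 0.692 and 1.16 TPM in acHKO hepatocytes against 0.216, 0.223 and 0.258 TPM in GFP controls, a ratio of mean TPM of 3.87 (log2 difference 0.62 ± 0.12 SE, limma adjusted p = 0.007969). Mcm5 was at 0.498, 0.748 and 0.651 TPM in acHKO hepatocytes against 0.257, 0.181 and 0.223 TPM in GFP controls, a ratio of 2.87 (0.42 ± 0.10 SE, limma adjusted p = 0.01663). In both genes the lowest acHKO library was above the highest GFP library. Without GFP replicate 2 the adjusted p of Mcm5 was 0.07498 by limma, and Mcm2 passed without each library in turn. Mcm6 overlapped, with 0.757, 1.36 and 1.29 TPM in acHKO hepatocytes against 0.778, 0.795 and 1.17 TPM in GFP controls.

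The 2 that fell supply thymidine nucleotides, Tk1 from chr11:117815526-117826092 and Tyms from chr5:30058202-30073617, both on the minus strand of GRCm38. Tk1 was at 3.87, 6.84 and 5.28 TPM in acHKO hepatocytes against 11.9, 10.5 and 15.4 TPM in GFP controls, a ratio of 0.423 (log2 difference -1.11 ± 0.22 SE, limma adjusted p = 0.009737). Tyms, thymidylate synthase, was at 1.41, 1.49 and 1.41 TPM in acHKO hepatocytes against 2.81, 3.14 and 3.39 TPM in GFP controls, a ratio of 0.461 (-0.75 ± 0.15 SE, limma adjusted p = 0.01038). The groups were apart in both genes. With mitochondrially encoded genes left out and the rest rescaled to the same total, neither passed: Tk1 had a log2 difference of -0.73 (limma adjusted p = 0.07423) and Tyms of -0.49 (limma adjusted p = 0.1056). With coding transcripts alone Tk1 passed (-1.50, limma adjusted p = 5.956e-05), as did Gins4, Orc6 and Pola1, and Tyms did not (-0.27, limma adjusted p = 0.06446). In that setting 4 of 33 members were lower, where 44.5% of all genes were, and 2 were higher, where 5.44% were.

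In the authors' deposited table for the acute comparison 9 members were higher at an adjusted p under 0.05, where 16.4% of all genes with an adjusted p were, led by Cdc6 (log2 fold change 2.55) and Mcm2 (2.25, adjusted p = 6.26e-15). The authors' deposited table gave 3 members as lower (16.1% of all genes), namely Tk1 (-0.93), Tyms (-0.82) and Pola1 (-0.57). The members' median log2 fold change there was 0.37, against 0.097 for all genes with an adjusted p.

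Some genes of the wider nucleotide pathways fell in acHKO hepatocytes, beside 22.7% of all genes. Of 15 genes of de novo purine and pyrimidine synthesis 7 fell and 0 rose on TPM as deposited, and 5 were lower and 2 higher after median-ratio rescaling, where 13.9% of all genes were lower and 17.2% higher. Gart, which carries several steps of purine ring synthesis, was at 3.88, 3.59 and 3.01 TPM in acHKO hepatocytes against 6.76, 8.84 and 11.0 TPM in GFP controls (-1.12, limma adjusted p = 0.006571). Gmps, which makes GMP, was at 3.25, 2.92 and 2.31 TPM in acHKO hepatocytes against 5.73, 7.66 and 8.70 TPM in GFP controls (-1.12, limma adjusted p = 0.006194). In both genes the groups were well apart. Of 12 tested genes of other deoxynucleotide supply 4 fell, among them Dtymk, which phosphorylates the product of both Tyms and Tk1 (-0.83, limma adjusted p = 0.01333), and after rescaling 2 were lower and 1 higher. The 13 E2F factors and pocket proteins included 5 that fell, led by E2f5, E2f8, Tfdp1 and Tfdp2, and 3 were lower after rescaling. Mcm10, a fork factor, was at 26.4, 24.4 and 22.0 TPM in acHKO hepatocytes against 45.7, 51.5 and 57.6 TPM in GFP controls (-1.06, limma adjusted p = 0.003734) and was the 1 of the other origin and fork factors that fell. Cdkn1a rose (2.28, limma adjusted p = 0.03417), although its groups overlapped, with 17.7, 31.0 and 4.43 TPM in acHKO hepatocytes against 2.16, 5.02 and 0.477 TPM in GFP controls. Of the 11 mitosis genes tested 2 rose, Bub1b and Top2a. Macrophage markers summed to 27.5, 8.25 and 53.0 TPM in acHKO hepatocytes against 5.65, 7.41 and 14.5 TPM in GFP controls, with Cd68 past the threshold. Lymphocyte markers summed to 10.7, 4.11 and 4.77 TPM in acHKO hepatocytes against 0.562, 0.588 and 1.58 TPM in GFP controls, with Cd3e and Ighm past it, and 3 of the 10 hepatocyte markers, Hnf4a, Cps1 and Fga, were lower, with 0 higher. After rescaling 3 of the 10 were lower and 2 higher. The part of these shifts in the results was not tested.

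No member passed the limma test of a difference in the HKO effect between the ages on TPM as deposited: 0 of 36 passed as larger at 1 month and 0 as larger at P10, where 0.59% and 1.37% of all genes passed. At an unadjusted p under 0.05 there were 2 larger at 1 month and 4 larger at P10, with no share of all genes counted. After median-ratio rescaling 2 passed as larger at 1 month (2.22% of all genes), Mcm6 (1.10, limma adjusted p = 0.02103) and Gins2 (1.03, limma adjusted p = 0.02593), and 0 as larger at P10 (1.61%). Of the 20 mitosis genes 6 passed as larger at 1 month on TPM as deposited. The acHKO effect was lower than the HKO effect at 1 month in 2 members, Tyms and Gins2, and higher in 0, where 3.86% and 0.842% of the 17105 genes tested were. For Tyms the acHKO effect minus the HKO effect was -1.221 ± 0.22 (SE, limma adjusted p = 0.01041), and for Gins2 it was -0.789 ± 0.19 (SE, limma adjusted p = 0.03571). Neither passed with coding transcripts alone. Tyms also did not pass without control replicate 1 at 1 month (limma adjusted p = 0.05169). Gins2 did not pass without control replicate 1, control replicate 2 or HKO replicate 2 at 1 month, nor without GFP replicate 2 or 3 or acHKO replicate 1 or 2, with limma adjusted p of 0.05624 to 0.1444. At an unadjusted limma p under 0.05 there were 8 members lower and 0 higher, with no share of all genes counted. After rescaling too 2 members were lower (7.07% of all genes) and 0 higher (5.38%). In the same comparison 16 of 20 mitosis genes had a lower effect in acHKO than in HKO hepatocytes at 1 month.

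Shares of transcript models within a gene were compared because Srsf1 is a splicing factor. None of the 18 members with several testable models passed for a change in shares at P10 or at 1 month, where 0.648% and 0.341% of all genes tested did, and 1 of 6 did in the acute comparison, where 34.8% of all genes did. A change required an adjusted p under 0.05 in limma's diffSplice and a shift of at least 10 percentage points. That gene was Tk1: of the summed TPM of its tested models, the coding model Tk1-201 made up 75.1% in acHKO hepatocytes and 90.6% in GFP controls, and a retained-intron model the other 24.9% in acHKO hepatocytes and 9.39% in GFP controls (diffSplice adjusted p = 0.001544). Of the TPM of the whole gene, the coding model held 70.7%, 63.0% and 53.5% in acHKO hepatocytes against 84.2%, 84.3% and 74.9% in GFP controls. The coding model carried the fall of the gene, with 2.73, 4.30 and 2.83 TPM in acHKO hepatocytes against 10.0, 8.83 and 11.5 TPM in GFP controls. The retained-intron model overlapped, with 0.681, 1.34 and 1.24 TPM in acHKO hepatocytes against 0.846, 0.665 and 1.64 TPM in GFP controls.

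Tyms had the opposite make-up. Its coding model Tyms-201 was at 0.461, 0.436 and 0.359 TPM in acHKO hepatocytes against 0.459, 0.552 and 0.707 TPM in GFP controls, so that the groups overlapped. The retained-intron model Tyms-202 was at 0.149, 0.221 and 0.211 TPM in acHKO hepatocytes against 0.509, 0.900 and 1.43 TPM in GFP controls, and the model Tyms-205, annotated as a target of nonsense-mediated decay, was at 0.484, 0.628 and 0.516 TPM against 1.17, 1.16 and 0.883 TPM. The difference in the Tyms sum was thus mostly in models that do not encode the full protein. Retained-intron models of all 36 members held 21.5%, 19.1% and 22.3% of their summed TPM in acHKO hepatocytes against 14.2%, 16.2% and 18.6% in GFP controls. The summed TPM of these models overlapped, with 14.98, 13.93 and 16.15 in acHKO hepatocytes against 10.21, 12.23 and 19.38 in GFP controls. That of the members' coding models did not, with 52.29, 56.83 and 53.79 against 59.22, 61.06 and 82.67 in the same order. Across all genes the retained-intron share overlapped too, at 1.2506%, 1.4507% and 1.2024% against 0.9505%, 1.2975% and 1.468%. At 1 month the retained-intron share of the members was 21.1% and 16.8% in HKO hepatocytes against 26.5% and 19.3% in controls.

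Promoter sequences were examined for the binding motif of the E2F factors that control many of these genes. The E2F motif was searched as the words TTTCCCGC, TTTCGCGC, TTTGCCGC and TTTGGCGC on both strands, in windows running from 250 bases before to 50 bases after each start site in RefSeq on GRCm38.p6. A window was found for 29 members, as 33 windows, and 12 of the 33 (36.4%) held a word, against 2.27% of all 32851 windows and 4.50% of the windows with at least 10 CpG. None of the 17 windows of the mitosis genes held one. The mitosis windows instead held the CHR word TTTGAA in 11 of 17 (64.7%), against 4 of 33 windows of the members (12.1%) and 17.9% of all windows. The words were in the windows of Orc1, Cdc6, Cdt1, Mcm3, Mcm5, Mcm6, Mcm7, Gins3, Pola1, Pold1, Rfc3 and Lig1, and the windows of Mcm2, Tk1 and Tyms held none. A match describes the letters of a window and does not show binding. Windows of 5 licensing and helicase genes that held a word are printed 5′ to 3′ on the strand of the gene. The E2F words are in capitals. Of these genes 3 passed as higher at P10, and Mcm6 and Mcm5 had the largest differences among helicase subunits at 1 month. Mcm2 also passed at P10, but its window held no word and is not printed. The printed windows are Cdc6 (chr11:98907901-98908200, plus strand), Cdt1 (chr8:122567765-122568064, plus strand), Mcm3 (chr1:20820263-20820562, minus strand), Mcm5 (chr8:75109259-75109558, plus strand) and Mcm6 (chr1:128359656-128359955, minus strand).
Cdc6: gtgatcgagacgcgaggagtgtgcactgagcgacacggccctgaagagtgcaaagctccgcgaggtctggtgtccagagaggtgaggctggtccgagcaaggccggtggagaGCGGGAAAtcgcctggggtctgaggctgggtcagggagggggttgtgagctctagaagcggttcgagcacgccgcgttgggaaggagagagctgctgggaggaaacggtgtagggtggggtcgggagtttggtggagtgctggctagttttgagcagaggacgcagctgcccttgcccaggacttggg
Cdt1: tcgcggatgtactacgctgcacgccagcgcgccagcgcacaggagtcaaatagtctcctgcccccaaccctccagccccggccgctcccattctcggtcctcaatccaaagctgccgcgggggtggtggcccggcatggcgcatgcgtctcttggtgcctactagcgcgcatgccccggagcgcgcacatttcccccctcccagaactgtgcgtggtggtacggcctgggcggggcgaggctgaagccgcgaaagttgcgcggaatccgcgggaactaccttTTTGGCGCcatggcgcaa
Mcm3: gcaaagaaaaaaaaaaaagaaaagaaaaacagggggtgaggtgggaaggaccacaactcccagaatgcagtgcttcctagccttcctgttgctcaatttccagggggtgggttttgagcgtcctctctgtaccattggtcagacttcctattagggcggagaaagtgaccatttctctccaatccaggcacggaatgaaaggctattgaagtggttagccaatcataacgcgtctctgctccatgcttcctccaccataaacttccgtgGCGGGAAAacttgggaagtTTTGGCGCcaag
Mcm5: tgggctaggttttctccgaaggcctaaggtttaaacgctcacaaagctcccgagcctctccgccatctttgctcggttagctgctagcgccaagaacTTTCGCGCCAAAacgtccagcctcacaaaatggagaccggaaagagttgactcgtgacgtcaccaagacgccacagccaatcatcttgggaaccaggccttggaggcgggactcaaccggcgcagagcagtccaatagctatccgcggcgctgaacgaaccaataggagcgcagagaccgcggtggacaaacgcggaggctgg
Mcm6: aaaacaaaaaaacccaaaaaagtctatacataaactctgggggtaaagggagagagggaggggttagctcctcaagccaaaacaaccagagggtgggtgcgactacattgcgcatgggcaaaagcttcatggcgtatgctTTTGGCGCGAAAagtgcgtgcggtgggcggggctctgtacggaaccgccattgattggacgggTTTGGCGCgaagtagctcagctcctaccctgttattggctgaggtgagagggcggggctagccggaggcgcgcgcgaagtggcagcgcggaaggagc
In Mcm5 and in Mcm6 a pair of words overlap and so form 1 run of capitals, starting 153 bases before the start in Mcm5 and 110 bases before it in Mcm6. Both words of the Mcm3 window lie after the start. The Mcm6 window holds a further word 47 bases before the start. Mcm2, without a word in its window, rose at P10 and in acHKO hepatocytes.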

How the data were processed

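The authors quantified transcripts with kallisto 0.46.0 after bcl2fastq 2.17.1.14, on GRCm38 (mm10), per the submitters' processing notes, and deposited TPM for 137767 transcripts in 14 libraries. Library totals were 999999.6 to 1000000.2 TPM. Sequencing depth cannot be read from TPM, so depths are unknown and counting intervals are not given. The authors also deposited 3 DESeq2 tables, per the file headers, with a mean normalized signal, a log2 fold change and its error, a test score, and p-values for each comparison.

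Transcript TPM were summed per gene and tested as log2(TPM + 1) with limma 3.58.1 in R 4.3.3 (linear model with trended empirical Bayes, two-sided). Genes averaging under 0.1 TPM in the libraries fitted were left out, and p-values were adjusted by Benjamini-Hochberg over all genes tested, at 0.05. One fit over 8 libraries served all HKO comparisons and one over 6 libraries the acute comparison, each with 4 residual degrees of freedom. The difference between acute and 1 month effects used all 14. Replicates within a group correlated at 0.9812 to 0.9936. On simulated data for the P10 comparison (17332 genes) 80% of genes changed by 1 on the log2(TPM + 1) scale were recovered, for the 1 month comparison (17332 genes) 83%, and for the acute comparison (14750 genes) 100%. The changed genes were drawn only from those with a mean log2(TPM + 1) of at least 1, with a spread that followed the trend with level. Recovery at the lower levels that many members had at 1 month and in adults was not measured.

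Transcript shares were tested with limma's diffSplice on models of at least 0.5 TPM and 5% of their gene. Gene positions are from GENCODE M21, which matched 53229 of the gene IDs, and promoter windows from RefSeq on GRCm38.p6 with Python 3.11.15. No promoter window was printed or searched for Rfc2, Gins4, Mcm4, Pole, Gins1, Gins2 and Prim2. The members, the lists of other genes and the markers were chosen with earlier results of these data known. Every member tested is reported. The text names those that passed, those with the largest differences that did not, and the exceptions within their role. From each other list the text names at most the 4 tested genes with the smallest p, and any that passed against the direction of most.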

Additional observations from a re-analysis of the deposited data

Results flagged for a closer look

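The acHKO effect differed from the HKO effect at 1 month in 2 members, by a test of that difference in limma over all 14 libraries. For Tyms the difference was -1.221 on the log2(TPM + 1) scale (limma adjusted p = 0.01041). Tyms was at 1.41, 1.49 and 1.41 TPM in acHKO hepatocytes against 2.81, 3.14 and 3.39 TPM in GFP controls, and at 3.77 and 4.47 TPM in HKO hepatocytes at 1 month against 2.18 and 3.29 TPM in controls. For Gins2 the difference was -0.789 (limma adjusted p = 0.03571). Gins2 was at 0.151, 0.174 and 0.355 TPM in acHKO hepatocytes against 0.138, 0.088 and 0.062 TPM in GFP controls, and at 0.789 and 1.39 TPM in HKO hepatocytes at 1 month against 0.029 and 0.119 TPM in controls. The acute and 1 month comparisons also differ in age, vector, control genotype and the kind of index used for the libraries. These differences cannot be told apart from the mode of deletion.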

How the results depend on the processing

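The fall of the members with age held under every alternative run, with 33 to 35 of 36 lower in controls and 35 to 36 in HKO hepatocytes when 1 library was left out. The counts for genotype moved more, and the cause was not tested. At P10 the 7 members higher (10.8% of all genes) became 0 with a pseudocount of 0.1 (6.38%). They became 3 after median-ratio rescaling (7.83%) and 16 without mitochondrially encoded genes (18.7%). The calls at P10 also depended on single libraries, as given above. At 1 month the 1 member higher (2.86% of all genes) became 5 with a pseudocount of 0.1 (5.67%) and 4 with 0.5 (3.68%). The count was 2 with a minimum of 1 TPM (4.87%) and 0 with no minimum (0.885%). It was 8 after rescaling (6.93%) and 17 without mitochondrially encoded genes (11.8%). The call of Gins2 at 1 month also depended on single control libraries, as given above. In the acute comparison the 2 higher (5.57% of all genes) became 0 with a minimum of 1 TPM (5.93%) and 1 with no minimum (2.49%). They became 9 after rescaling (17.2%), and 1 to 2 with 1 library left out (3.12% to 5.86%). The 2 lower (22.7%) became 0 without mitochondrially encoded genes (4.83%) and 4 with coding transcripts (44.5%). They stayed 2 with 1 library left out (10.4% to 31.4%). For the HKO effect at 1 month minus that at P10, rescaling gave 2 higher (2.22% of all genes) and coding transcripts 1 lower (4.37%). On TPM as deposited there were 0 each (0.59% higher and 1.37% lower). For the acHKO effect minus the HKO effect at 1 month the 2 lower (3.86% of all genes) became 1 with no minimum (1.2%) and 0 with coding transcripts (6.82%). Their dependence on single libraries is given above. Changed transcript usage in the acute comparison was called in 1 to 2 members with 1 library left out, where 26.4% to 33.5% of all genes were.

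The share of all calls that were lower was 13.2% at P10 and 41.9% after rescaling, and 80.3% in the acute comparison and 44.8% after rescaling. It was 88.0% for age in controls (67.2% after rescaling) and 93.7% for age in HKO hepatocytes (65.4% after rescaling). The mitosis genes higher at 1 month numbered 17 of 20, 12 with no minimum and 19 after rescaling, a set of alternatives added after seeing the data.

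The labels number the replicates alike across groups. Deviations of same-numbered libraries correlated at 0.0072 at P10, 0.2826 at 1 month, and -0.0392, 0.2704 and 0.1838 in the acute comparison, so the number was not taken as a pairing. With the replicate number as a block, the members higher were 7 at P10 (12.3% of all genes) and 2 at 1 month (2.42%). In that setting 1 member had a lower acHKO effect than HKO effect at 1 month (2.86%). Under the block Rrm2 lost its call at P10 (limma adjusted p = 0.05197) and Orc1 gained one, and Gins2 lost its call in the acHKO effect minus the HKO effect at 1 month (limma adjusted p = 0.06502).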

Other observations

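The mean profile of the members over the 14 libraries, on the log2(TPM + 1) scale, was compared with 11186 other genes. The genes most like it by Pearson's r were Tcf19 (0.996), Dck (0.9957), Wdhd1 (0.9953), Asf1b (0.9953) and Rad51ap1 (0.9952), followed by Afp (0.9951), the fetal serum protein, Bex3 (0.9947), Rbl1 (0.9944), Lipo3 (0.9943) and Rian (0.9936). These values describe 14 libraries that differ mainly by age, so genes that fall between P10 and 1 month for any reason rank high. Within the set, Tk1 (0.7915) and Gins4 (0.8015) followed the mean of the other members least closely.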
